A study of Drosophila melanogaster with 10 samples.

Results

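Respiratory chain and ATP synthase subunits encoded in the nucleus were followed in SL2 cells, a macrophage-like Drosophila melanogaster line from embryos, after RNA interference against Tip60, a histone acetyltransferase. Members were all probe sets whose only platform gene symbol starts with ND-, UQCR-, ATPsyn or COX4 to COX8, or equals SdhA, SdhB, SdhC, SdhD, blw, RFeSP, Cyt-c1 or Cyt-c-p. This gave 72 genes on 81 probe sets, of 11982 named genes on 18769 fly probe sets. They comprised 32 genes of complex I, 3 of complex II, 8 of complex III, 14 of complex IV and 15 of complex V. Another 16 genes of the reference gene table fit the rule but had no probe set of their own name here and were not analysed, among them SdhA, Cyt-c-p, UQCR-C1, UQCR-C2, ND-23, ND-24, ND-30 and ND-49. Of the 72 genes, 18 carry a -like name (a subunit symbol followed by L, or by L and a digit). In D. melanogaster many such copies are known from the testis.

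Tip60 RNAi was measured on 6 arrays, each from cells given 10 µg of 1 of 3 double-stranded RNAs (dsRNAs) against Tip60, with 2 arrays for each dsRNA. The labels name the dsRNAs by their position in Tip60 as 1321-1618, 190-807 and 603-1116, and the last pair share 205 nucleotides. The comparison group was 4 arrays of cells mock-treated with dsRNA against eGFP, a jellyfish gene absent from these cells. These are numbered 2-1, 2-2, 3-1 and 3-2, and were paired by their leading digit where pairs of arrays were averaged. All cells were kept at 26°C and harvested after 5 days, so every group had taken up dsRNA and differed in its target. All arrays came from 1 cell line, the labels do not say that arrays of a group were separate cultures, and p-values therefore measure a spread that may be technical.

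The respiratory chain passes electrons from NADH (complex I) and succinate (complex II) by way of ubiquinone, complex III, cytochrome c and complex IV to oxygen, and pumps protons across the inner mitochondrial membrane on the way. Complex V, the ATP synthase, lets the protons flow back through a rotor and makes ATP in its catalytic head. Most subunits are encoded in the nucleus and imported, whereas several core subunits of complexes I, III, IV and V are encoded in mitochondrial DNA. The list of mitochondrial genome transcripts held 15 genes, and 0 of them had a named probe set, so only the nuclear share of each complex was seen.

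Tip60 itself averaged a signal of 307 ± 71.5 in Tip60 RNAi cells (SD, n = 6) and 1239 ± 103 in eGFP RNAi cells (SD, n = 4). The 6 Tip60 RNAi arrays lay between 209 and 400, below the 4 eGFP RNAi arrays at 1138 to 1339. Single arrays were permuted, ignoring pairs, in 210 splits (two-sided exact permutation test, p = 0.00476, the smallest such splits allow). Signals are linear array intensities scaled so that each array has the same trimmed mean, so all changes are relative to an array's own bright transcripts. The median fly probe set was brighter on the Tip60 RNAi arrays, at 78.6 to 110.1, against 55.6 to 72.1 on the eGFP RNAi arrays. The ratio of 3' to 5' GAPDH signal, a sign of RNA integrity, was 1.48 to 1.70 on the Tip60 RNAi arrays and 1.44 to 1.76 on the eGFP RNAi arrays. That of eIF-4a was 2.60 to 3.57 on the Tip60 RNAi arrays and 2.56 to 2.84 on the eGFP RNAi arrays. All 12 hemocyte markers rose, where 497 of the 2073 brightest genes tested were called higher. The summed signal of the 12 markers was 248193 to 298461 in Tip60 RNAi cells and 159139 to 181999 in eGFP RNAi cells. Of 12 testis markers, 10 lay below the signal filter and the others were not called. Of the fat body, muscle and neuron markers tested, only the neuron marker brp was called, and it was higher. The part of these shifts in the results on subunits was not tested, and in bulk RNA fewer cells of a type and less RNA per cell cannot be told apart.

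Most subunit transcripts of the chain were lower in Tip60 RNAi cells. For the filter and wherever brightness is given, a gene's mean signal was averaged over all arrays on the log2 scale. Of the 72 genes, 62 passed the filter on dim signals (a mean signal of at least 34.5), each counted by its brightest probe set. Of these, 38 fell, 4 rose and 20 were not called (limma, with p-values adjusted by Benjamini-Hochberg across all 11261 probe sets tested and a threshold of 0.05). Over all 8290 genes tested, 19.7% were called lower and 17.5% higher. The median log2 change was -0.26 over the 62 genes and 0.03 over all genes tested. All 38 genes that fell are among the 53 tested genes without a -like name, of which 49 had a negative change, 1 rose and 14 were not called. The other 3 genes that rose are dim -like genes. Among them, UQCR-11L passed the filter only through its Tip60 RNAi signal. The 38 stood at 59.3% to 89.0% of their eGFP RNAi mean, with a median of 79.5%, so each fall was modest in size.

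Brightness matters for reading these counts, because bright genes were called lower more often: 33.8% of the 2073 brightest genes. Of the 53 genes, 51 are among those 2073, and 38 of the 51 fell. The median log2 change was -0.27 for the 51 genes and -0.05 for the 2073. The other two, ND-B12 and UQCR-11, had mean signals of 253 and 209 and were not called. In 29 of the 62 genes every Tip60 RNAi array lay below every eGFP RNAi array, against 15.4% of all genes tested and 27.4% of the 2073 brightest. All 29 are among those 2073.

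**Figure D1:**
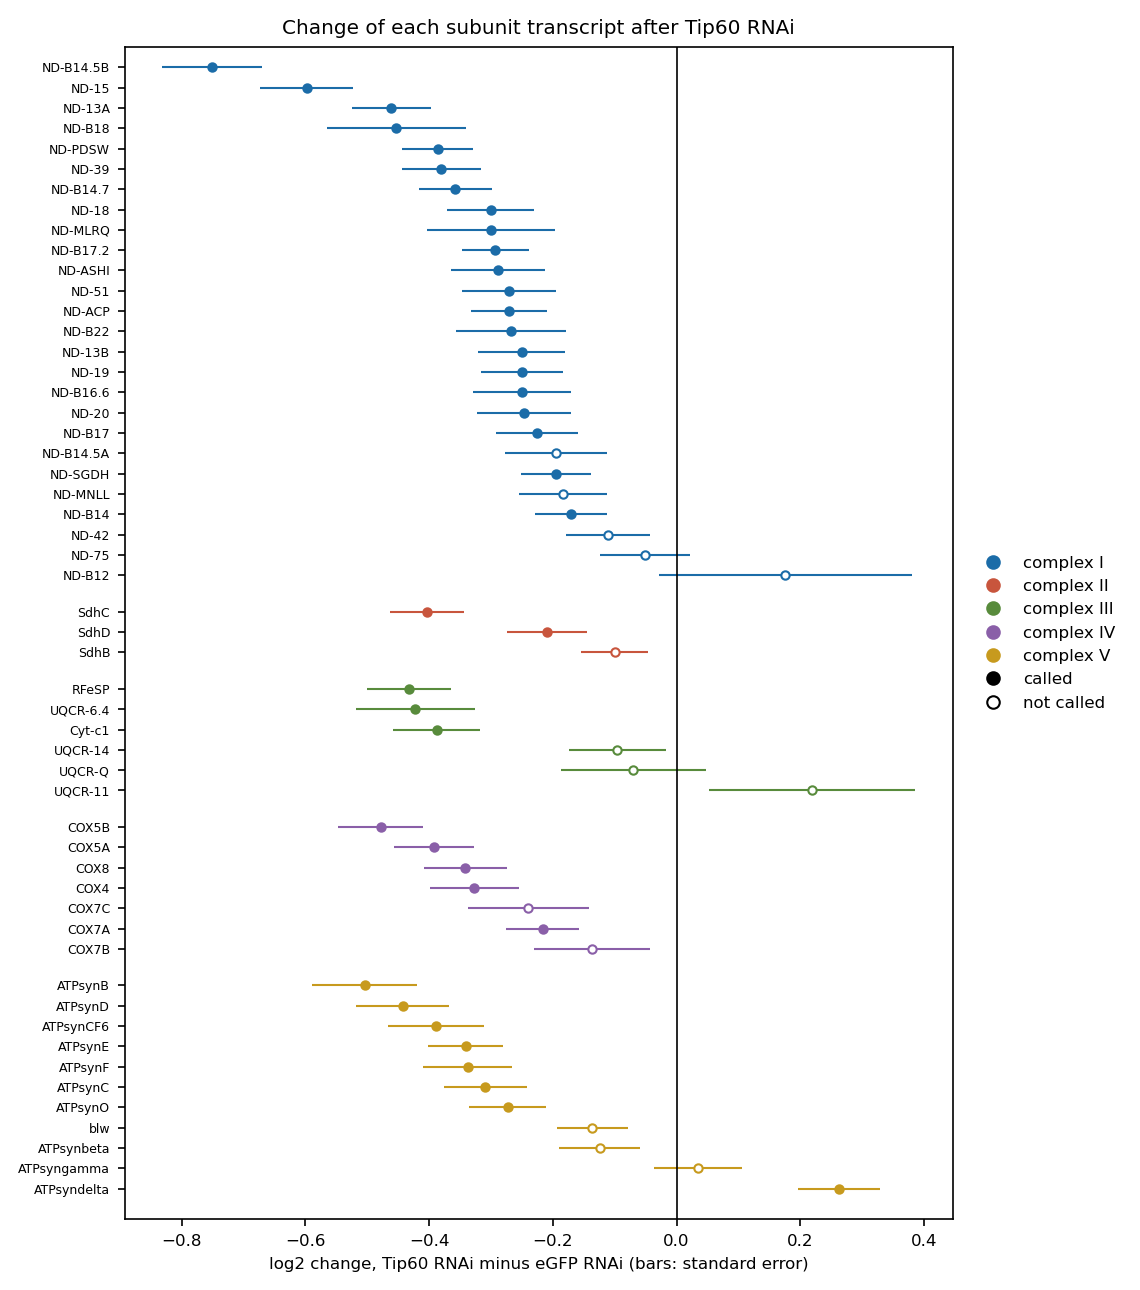
Log2 change (Tip60 RNAi minus eGFP RNAi, x axis) of each of the 53 tested subunit genes without a -like name, ordered within complexes I to V; points are limma estimates, bars their standard errors, filled points called. Of the 53 points, 49 lie left of 0, between -0.75 for ND-B14.5B and 0.26 for ATPsyndelta.

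Seen array by array, the shift was present on each of the 6 Tip60 RNAi arrays. The median log2 difference of the 53 genes from the eGFP RNAi mean was -0.27 and -0.18 on the arrays of dsRNA 1321-1618. For dsRNA 190-807 the medians were -0.20 and -0.32, and for dsRNA 603-1116 they were -0.35 and -0.35. The 4 eGFP RNAi arrays had medians of -0.04, -0.01, 0.07 and -0.01 about their own mean. Between 44 and 50 of the 53 genes lay below the eGFP RNAi mean on a Tip60 RNAi array. The 2073 brightest genes had medians of -0.07 to -0.03 on the same arrays.

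**Figure D2:**
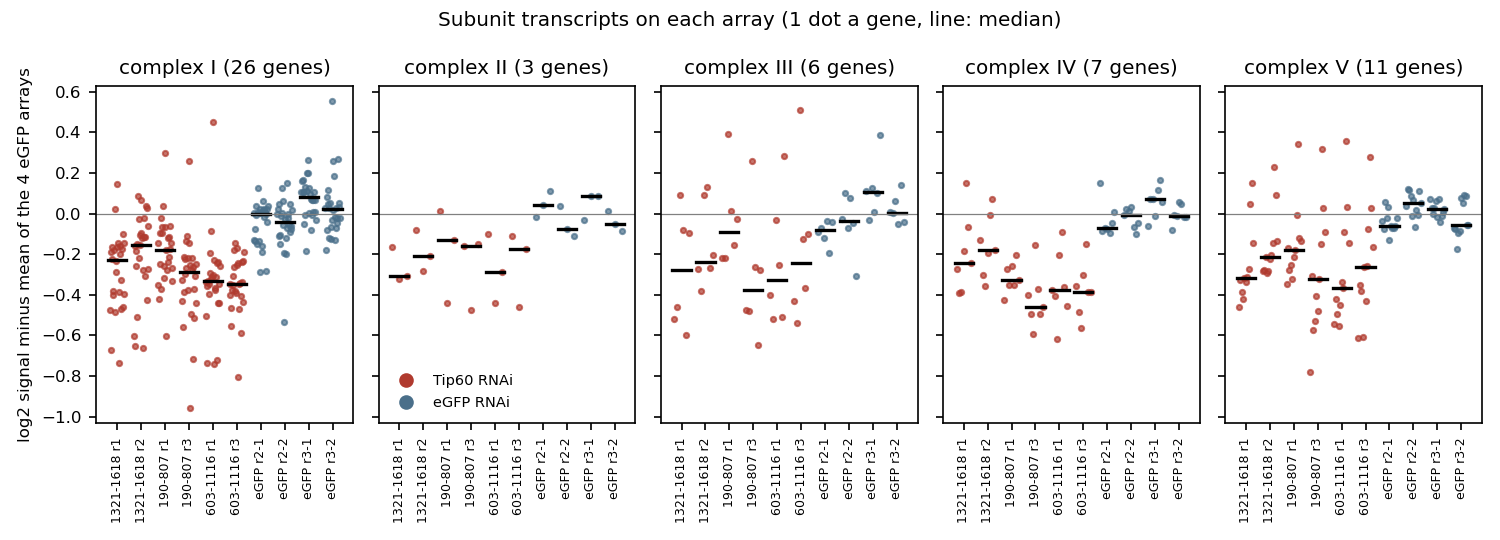
Log2 signal minus the mean of the 4 eGFP RNAi arrays (y axis) for each subunit gene without a -like name (dots) on each array (x axis; r, replicate), by complex, with the median as a line. Over all 53 genes the medians are -0.35 to -0.18 on the Tip60 RNAi arrays and -0.04 to 0.07 on the eGFP RNAi arrays.

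Complex I, the NADH dehydrogenase, had the most members, among them the single gene that fell most, ND-B14.5B. Of its 26 tested genes without a -like name, 21 fell, 0 rose and 5 were not called, and the median log2 change was -0.27. ND-B8 was below the filter with a mean signal of 14.7, averaged on the log2 scale of the filter. ND-B14.5B, an accessory subunit of the membrane arm, had signals of 6067, 7047 and 7751 in Tip60 RNAi cells (lowest, median and highest of 6 arrays) and of 10516, 10831, 12571 and 13363 in eGFP RNAi cells. The groups lie far apart, with Tip60 RNAi cells at 59.3% of the eGFP RNAi mean. Its log2 change was -0.75 ± 0.08 (SE) with an adjusted p of 2.3e-06 (limma).

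ND-15, another accessory subunit, had 4792, 5246 and 5968 in Tip60 RNAi cells and 7251, 7391, 8933 and 8446 in eGFP RNAi cells, a log2 change of -0.60 (limma, adjusted p = 1.2e-05). ND-13A, a zinc-binding subunit needed late in assembly in other species, had 4917, 5448 and 5841 in Tip60 RNAi cells and 6814, 7442, 8020 and 7604 in eGFP RNAi cells, a log2 change of -0.46 (limma, adjusted p = 3.2e-05). Neither gene had an overlap between the groups. ND-B18 had 3513, 4019 and 5352 in Tip60 RNAi cells and 5819, 5575, 6072 and 5698 in eGFP RNAi cells, a log2 change of -0.45 (limma, adjusted p = 0.0047). The groups were separate, but the Tip60 RNAi arrays scattered more, with an SD of 853 against 212. ND-PDSW had 4939, 5027 and 5549 in Tip60 RNAi cells and 6514, 6357, 7039 and 6949 in eGFP RNAi cells, a log2 change of -0.39 (limma, adjusted p = 7.1e-05). ND-ACP, the mitochondrial acyl carrier protein, fell on each of its 3 probe sets, with log2 changes of -0.27, -0.47 and -0.52, and ND-B17 fell on both of its probe sets, though the brighter lost its call without eGFP replicate 3-1.

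Of the 3 measured subunits that carry out the catalysis, 2 fell and 1 was not called. ND-51, which binds NADH and the flavin, had 4509, 5257 and 5905 in Tip60 RNAi cells and 6344, 6890, 5557 and 6558 in eGFP RNAi cells, a log2 change of -0.27 (limma, adjusted p = 0.011). One eGFP RNAi array lies inside the range of the Tip60 RNAi arrays. ND-20, which holds the iron-sulphur cluster next to ubiquinone, had a log2 change of -0.25 (limma, adjusted p = 0.019), again with overlapping groups, and lost its call without eGFP replicate 3-1 or 3-2. ND-75, the large iron-sulphur subunit, had 2481, 2636 and 2812 in Tip60 RNAi cells and 2498, 2859, 3148 and 2512 in eGFP RNAi cells, a log2 change of -0.05 (limma, adjusted p = 0.63). Of the accessory subunits 19 of 23 fell, with a median log2 change of -0.27. ND-42, one of the 4 that were not called, had a log2 change of -0.11 (limma, adjusted p = 0.23). The difference between catalytic and accessory subunits was not tested.

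Complex II, succinate dehydrogenase, joins the tricarboxylic acid (TCA) cycle to the chain and was covered by 3 genes. SdhC and SdhD, which anchor the enzyme in the membrane, fell, and the iron-sulphur subunit SdhB was not called. SdhC had 6554, 6717 and 7485 in Tip60 RNAi cells and 9366, 8654, 9656 and 8789 in eGFP RNAi cells. No Tip60 RNAi array reached the lowest eGFP RNAi array, and the log2 change was -0.40 ± 0.06 (SE; limma, adjusted p = 6.7e-05). SdhD had 2810, 3039 and 3179 in Tip60 RNAi cells and 3751, 3220, 3687 and 3268 in eGFP RNAi cells, a log2 change of -0.21 (limma, adjusted p = 0.019), with groups separated by a narrow gap; it was not called without eGFP replicate 2-1 or 3-1 (limma, adjusted p = 0.080 and 0.075). SdhB had 5810, 6050 and 6562 in Tip60 RNAi cells and 6432, 6675, 6358 and 6573 in eGFP RNAi cells, a log2 change of -0.10 (limma, adjusted p = 0.17).

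Complex III, which hands electrons from ubiquinol to cytochrome c, had 6 tested genes without a -like name, of which 3 fell, 0 rose and 3 were not called. RFeSP, the Rieske iron-sulphur protein, had 6416, 6731 and 8001 in Tip60 RNAi cells and 8875, 9992, 9124 and 9324 in eGFP RNAi cells, a log2 change of -0.43 (limma, adjusted p = 0.00010). Cyt-c1, the haem subunit that meets cytochrome c, had 13915, 14949 and 17136 in Tip60 RNAi cells and 18771, 19588, 21547 and 20054 in eGFP RNAi cells, a log2 change of -0.39 (limma, adjusted p = 0.00041). Both of these electron carriers were lower on every Tip60 RNAi array. UQCR-6.4, a small supernumerary subunit, fell by 0.42 on the log2 scale (limma, adjusted p = 0.0025), with 1 eGFP RNAi array, at 15358, below the highest Tip60 RNAi array, at 15818. UQCR-14, which binds ubiquinone in mammals, had a log2 change of -0.10 (limma, adjusted p = 0.38), and UQCR-Q one of -0.07 (limma, adjusted p = 0.69). A second, dim probe set of RFeSP had 95.1 ± 21.6 in Tip60 RNAi cells and 71.8 ± 18.2 in eGFP RNAi cells (SD, n = 6 and 4) and was not called. Averaged over both probe sets on the log2 scale, RFeSP had a change of -0.01 and was not called (limma, adjusted p = 0.94).

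Complex IV, cytochrome c oxidase, has its catalytic core encoded in mitochondrial DNA, and the genes measured here surround that core. Of 7 tested genes without a -like name, 5 fell, 0 rose and 2 were not called, and the median log2 change was -0.33. COX5B, a zinc-binding subunit, had 8299, 9182 and 9989 in Tip60 RNAi cells and 12124, 12839, 13408 and 12621 in eGFP RNAi cells, a log2 change of -0.48 (limma, adjusted p = 4.8e-05). COX5A had 15431, 16505 and 18001 in Tip60 RNAi cells and 20504, 22124, 22835 and 21615 in eGFP RNAi cells, a log2 change of -0.39 (limma, adjusted p = 0.00017). All 5 genes that fell had separate groups. COX8 had 13462, 14437 and 16367 in Tip60 RNAi cells and 18579, 17909, 19243 and 18299 in eGFP RNAi cells, a log2 change of -0.34 (limma, adjusted p = 0.00079). COX4 and COX7A were the remaining pair, with log2 changes of -0.33 and -0.22.

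Different probe sets of COX7B and COX7C gave different answers. The brightest probe set of COX7B had a log2 change of -0.14 (limma, adjusted p = 0.29), whereas another bright one fell to 12434 ± 1405 in Tip60 RNAi cells, against 17318 ± 1512 in eGFP RNAi cells (SD, n = 6 and 4), a log2 change of -0.48 (limma, adjusted p = 0.00033). The brightest probe set of COX7C had a log2 change of -0.24 (limma, adjusted p = 0.070) and was called lower without replicate 1 or 2 of dsRNA 1321-1618 (limma, adjusted p = 0.048 and 0.014), whereas a dim one rose to 145 ± 28.0 in Tip60 RNAi cells, against 71.3 ± 15.6 in eGFP RNAi cells, a log2 change of 1.02 (limma, adjusted p = 0.0071). After quantile normalisation that rise was no longer called (0.56; limma, adjusted p = 0.12), while the brightest probe sets of COX7C and COX7B were called lower, at -0.33 each (limma, adjusted p = 0.0097 and 0.0040). Averaged over both probe sets on the log2 scale, COX7C was called higher (limma, adjusted p = 0.0042). Outside the symbol rule, levy and cype encode the subunits known in mammals as COX6A and COX6C. Both fell, with log2 changes of -0.37 and -0.20 (limma, adjusted p = 0.00027 and 0.049). Also outside the rule, the ATP synthase subunit gene sun was not called, with a log2 change of -0.07 (limma, adjusted p = 0.74).

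In the ATP synthase the stator, the fixed arm that holds the head against the turning rotor, fell as a whole. The catalytic head was not called on the deposited values, a result that depended on the scaling. The stator genes ATPsynB, ATPsynD, ATPsynCF6 and ATPsynO all fell, 4 of 4, with a median log2 change of -0.42 and no overlap between the groups in any of them. ATPsynB, the long arm of the stator, had 9787, 11889 and 13838 in Tip60 RNAi cells and 16403, 17256, 17653 and 16017 in eGFP RNAi cells, a log2 change of -0.50 ± 0.08 (SE; limma, adjusted p = 0.00020). ATPsynD had 9513, 10453 and 12167 in Tip60 RNAi cells and 14306, 15416, 14775 and 13570 in eGFP RNAi cells, a log2 change of -0.44 (limma, adjusted p = 0.00022). ATPsynCF6, coupling factor F6, had 10635, 12124 and 13627 in Tip60 RNAi cells and 16450, 17163, 15812 and 14032 in eGFP RNAi cells, a log2 change of -0.39 (limma, adjusted p = 0.00088). The membrane subunits ATPsynE and ATPsynF also fell, each by 0.34 on the log2 scale.

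The head of the synthase is made of alternating alpha and beta subunits, encoded by blw and ATPsynbeta. For blw the signals were 23769, 24207 and 25088 in Tip60 RNAi cells and 26276, 27696, 27132 and 25660 in eGFP RNAi cells. The groups do not overlap, yet the log2 change of -0.14 missed the threshold (limma, adjusted p = 0.077). ATPsynbeta had log2 changes of -0.12 and 0.13 on its brighter and dimmer probe sets (limma, adjusted p = 0.16 and 0.34). After quantile normalisation blw and the brighter ATPsynbeta probe set were called lower, at -0.34 and -0.25, so the calls on the head depend on the scaling. The stator and the head were not tested against each other.

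In the rotor, ATPsynC, the subunit of the ring in the membrane, had a log2 change of -0.31 and fell (limma, adjusted p = 0.0018). ATPsyngamma, the central shaft, had log2 changes of 0.03 on its brighter probe set and -0.23 on the other, which was called (limma, adjusted p = 0.74 and 0.034); leaving out 1 array ended that call for 7 of the 10 arrays (limma, adjusted p up to 0.11). ATPsyndelta, at the foot of the shaft, was the 1 gene without a -like name that rose. Its signals were 7043, 8377 and 8724 in Tip60 RNAi cells and 6480, 6780, 6767 and 7239 in eGFP RNAi cells, a log2 change of 0.26 ± 0.07 (SE; limma, adjusted p = 0.0054). One Tip60 RNAi array lies within the eGFP RNAi range, and the sign turned to -0.24, -0.28 and -0.49 with arrays scaled to their median, to the hybridisation spike-ins and to the poly-A spike-ins.

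**Figure D3:**
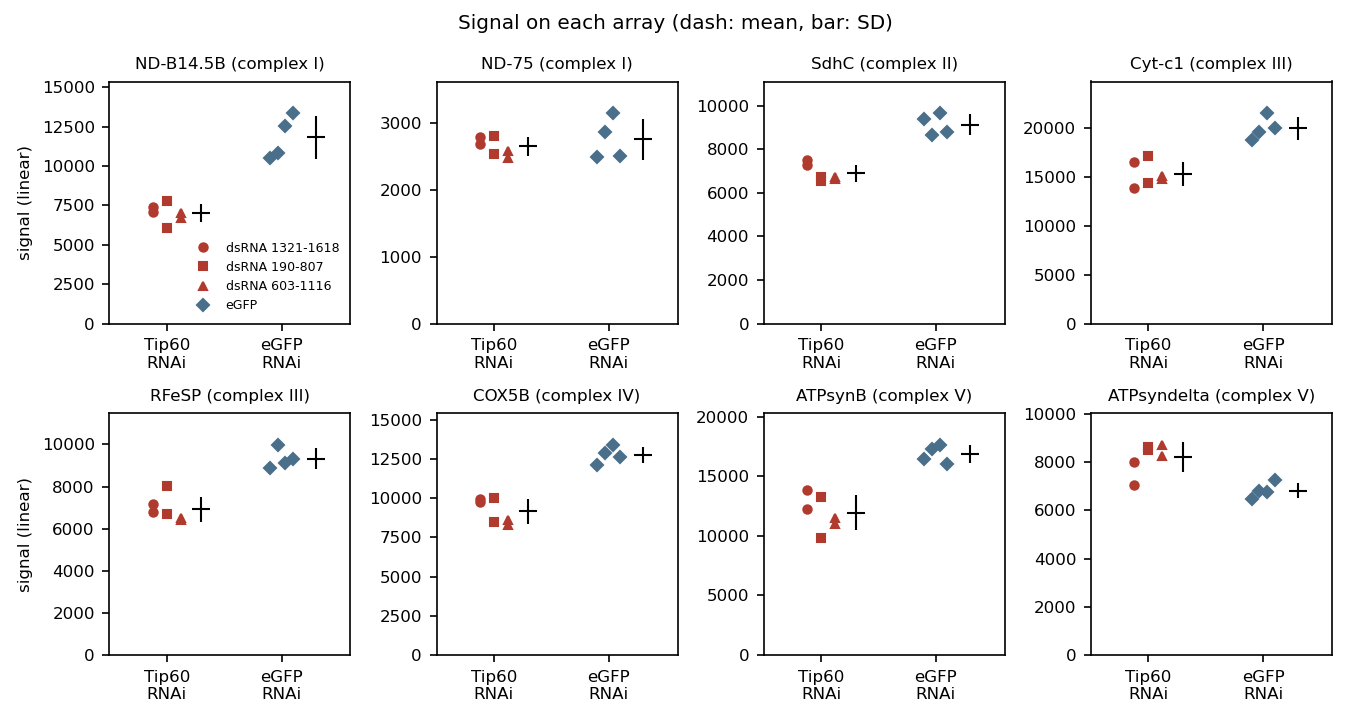
Linear signal (y axis, from 0) of 8 subunit genes on each array, with Tip60 RNAi arrays left (marker shape, dsRNA) and eGFP RNAi arrays right; dashes are means and bars SD (n = 6 and 4). ND-B14.5B, SdhC, Cyt-c1, RFeSP, COX5B and ATPsynB have separate groups, ND-75 overlaps (log2 change -0.05) and ATPsyndelta is higher in Tip60 RNAi cells.

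None of the -like genes was called lower, and most were dim. Of 18 such genes 9 passed the filter, with mean signals of 34.6 to 387. Of the 9, 0 fell, 3 rose and 6 were not called, and 3 had a negative change. Their median log2 change of 0.53 lay near the 0.46 of the 2073 dimmest genes, of which 12.6% were called higher, and no test of a difference was run. COX6AL had 111, 153 and 191 in Tip60 RNAi cells and 52.8, 78.0, 17.1 and 89.9 in eGFP RNAi cells, a log2 change of 1.54 (limma, adjusted p = 0.0070). COX4L had 62.4, 92.3 and 119 in Tip60 RNAi cells and 22.7, 35.4, 51.0 and 58.8 in eGFP RNAi cells, a log2 change of 1.20 (limma, adjusted p = 0.024). Both had separate groups, and the eGFP RNAi arrays of COX6AL spread widely. UQCR-11L had 46.5, 58.2 and 98.5 in Tip60 RNAi cells and 7.59, 41.6, 10.3 and 44.7 in eGFP RNAi cells, a log2 change of 1.71 (limma, adjusted p = 0.042). Its eGFP RNAi mean of 26.1 is under the filter, so it was tested because of its Tip60 RNAi signal. The same holds for COX7AL2 and COX6CL, whose eGFP RNAi means on the log2 scale of the filter are under it. The median of the 9 includes all of these, so it is partly set by the filter. Leaving out 1 array ended the call for UQCR-11L with 7 of the 10 arrays (limma, adjusted p of 0.053 to 0.13) and for COX4L without eGFP replicate 2-1 or 2-2 (limma, adjusted p = 0.083 and 0.052). Under quantile normalisation COX6AL was still called (1.08; limma, adjusted p = 0.044), and COX4L and UQCR-11L were not (0.67 and 1.17; limma, adjusted p = 0.17 and 0.16).

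The 6 -like genes that were not called spread to both sides of 0. COX7AL2 and ATPsynGL had log2 changes of 1.24 and 0.53, and COX6CL one of 0.13. ND-51L2, ATPsynbetaL and ATPsynepsilonL had log2 changes of -0.48, -0.48 and -0.24. In none of these did the groups separate. Another pair of -like genes outside the rule, SdhAL and SdhBL, lay below the filter. Detection calls were not used here, so it was not tested whether these signals exceed background.

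**Figure D4:**
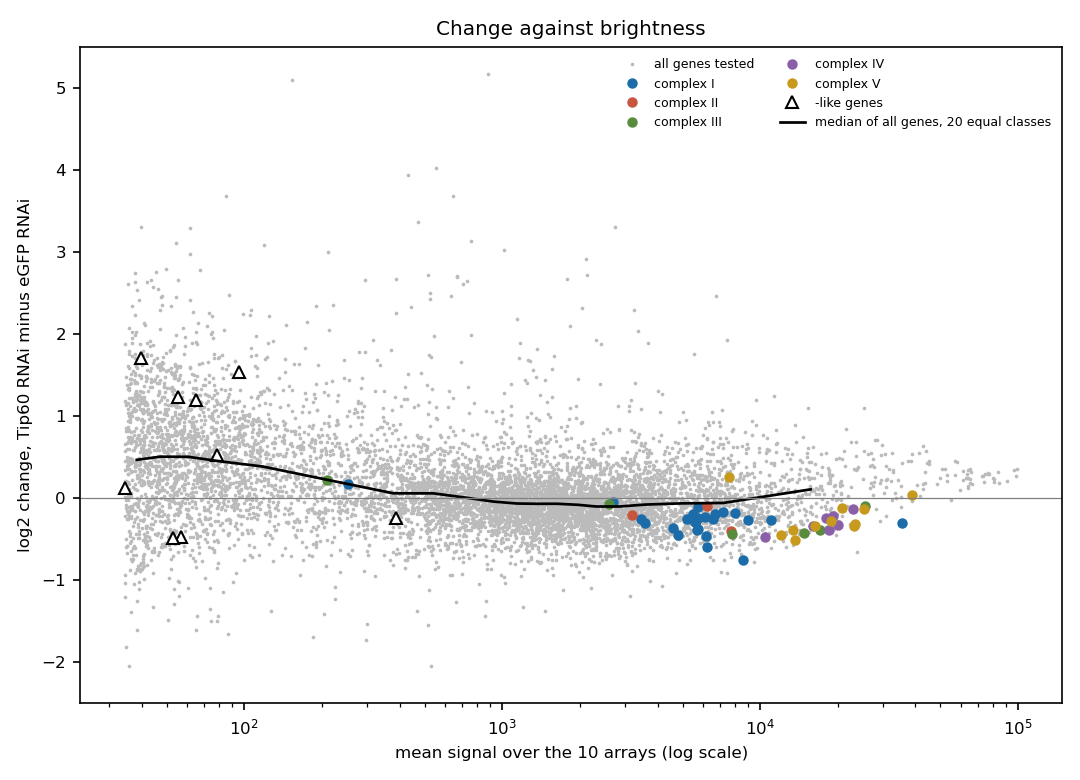
Log2 change (Tip60 RNAi minus eGFP RNAi, y axis) against mean signal over the 10 arrays (x axis, log scale) for all 8290 genes tested (grey), the subunits by complex (coloured dots) and the -like genes (open triangles); the line joins the medians of 20 brightness classes of equal size. Most subunits sit at the bright end below the line, with a median of -0.27 over the 53, and the -like genes at the dim end, where the 2073 dimmest genes have a median of 0.46.

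Each of the 3 dsRNAs was also set against the same 4 eGFP RNAi arrays, so the 3 contrasts share their controls. With dsRNA 1321-1618, 23 of the 62 members fell, with a median log2 change of -0.21, against 14.6% of all genes tested and 523 of the 2073 brightest. With dsRNA 190-807, 30 fell with a median of -0.25, against 13.2% of all genes and 486 of the 2073 brightest. With dsRNA 603-1116, 37 fell with a median of -0.33, against 16.4% of all genes and 631 of the 2073 brightest. These counts rest on 2 arrays per dsRNA: leaving out 1 array of a dsRNA lowered them to 7 (1321-1618 without replicate 1), 13 (190-807 without replicate 3), and 19 and 22 (603-1116 without replicates 1 and 3). Without eGFP replicate 3-1 the count for 1321-1618 was 15.

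No member was called for a difference among the 3 dsRNAs. The limma F-test called 0 of the 62, where it called 0.0362% of all genes. An unadjusted p under 0.05 was found in 6 of the 62 and in 765 of all 8290 genes tested. In ND-B14.5B the log2 changes were -0.70, -0.78 and -0.77 for dsRNAs 1321-1618, 190-807 and 603-1116. In ATPsynB they were -0.37, -0.56 and -0.58, and in COX5B -0.37, -0.47 and -0.59. All of these were called against eGFP. COX7C had 0.00, -0.35 and -0.37, and the brightest COX7B probe set 0.07, -0.36 and -0.12. Of the 26 complex I genes without a -like name, 10 fell with dsRNA 1321-1618, 14 with 190-807 and 20 with 603-1116. Against the 21 complex I genes that fell over all Tip60 RNAi arrays, 12 did without both arrays of dsRNA 603-1116. Of the 7 complex IV genes without a -like name, 2 fell with dsRNA 1321-1618, 6 with 190-807 and 6 with 603-1116. In the stator of the ATP synthase 4 of 4 fell with each dsRNA.

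**Figure D5:**
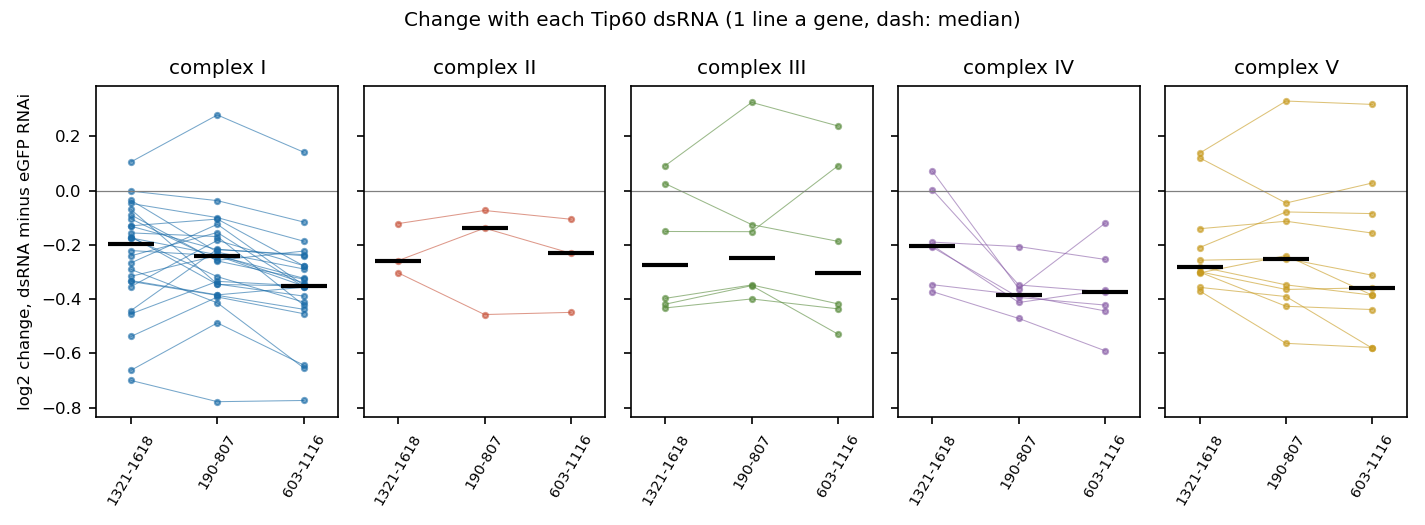
Log2 change of each subunit gene without a -like name (1 line a gene, y axis) with each Tip60 dsRNA against the same 4 eGFP RNAi arrays (x axis), by complex, with medians as dashes. In complex IV the medians are -0.20, -0.38 and -0.37 for dsRNAs 1321-1618, 190-807 and 603-1116, and in complex I -0.20, -0.24 and -0.35.

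Genes that serve the chain without being subunits were followed in lists. Counts are to be read against the 19.7% of all genes and 33.8% of the 2073 brightest genes that were called lower. They cover only genes with a named probe set above the filter. For complexes I to IV these were 4 of 13, 2 of 5, 3 of 5 and 8 of 21 listed genes. For ATP synthase regulation, TCA cycle and other electron entry they were 6 of 7, 9 of 18 and 4 of 9. For mitochondrial DNA and for import they were 13 of 19 and 12 of 21. Of the assembly factors, 0 of 4 for complex I, 0 of 2 in the list of complex II paralogs and assembly, and 0 of 3 for complex III were called in either direction. For complex IV, 3 of 8 fell and 0 rose, with a median log2 change of -0.13. Scox, which delivers copper, averaged 2671 ± 188 in Tip60 RNAi cells and 3823 ± 106 in eGFP RNAi cells (SD, n = 6 and 4), a log2 change of -0.52 (limma, adjusted p = 8.6e-06). The gene l(3)87Df, the fly relative of the assembly factor COX20, had a log2 change of -0.51 (limma, adjusted p = 9.9e-06), and Cox10, which makes haem O, one of -0.18 (limma, adjusted p = 0.032). In the list on ATP synthase regulation and nucleotide exchange, 1 of 6 fell and 1 rose. These were the ADP/ATP carriers sesB, with a log2 change of -0.22, and its neighbour Ant2, with 0.23 (limma, adjusted p = 0.027 and 0.049).

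Upstream of the chain, 3 of 9 TCA cycle and pyruvate dehydrogenase genes fell and 0 rose, a share close to that of the 2073 brightest genes (33.8%), with a median log2 change of -0.14. They were ScsbetaG and Scsalpha1, subunits of succinyl-CoA ligase, with log2 changes of -0.57 and -0.20, and the aconitase mAcon1, with -0.31. Among 4 genes of other electron entry and superoxide removal, 3 fell and 1 rose. Dhod, which feeds electrons from pyrimidine synthesis to ubiquinone, fell by 0.35 on the log2 scale, wal, a subunit of the electron transfer flavoprotein, by 0.27, and Sod2, the mitochondrial superoxide dismutase, by 0.55. Gpo2, a glycerol-3-phosphate dehydrogenase, rose to 244 ± 64.9 in Tip60 RNAi cells, against 128 ± 12.9 in eGFP RNAi cells (SD, n = 6 and 4), a log2 change of 0.89 (limma, adjusted p = 0.0038).

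Of 13 genes for mitochondrial DNA maintenance, transcription and biogenesis, 5 fell and 0 rose, with a median log2 change of -0.12. Most of the 13 were dimmer than the 2073 brightest genes, whose mean signals start at 2559. Of the 2072 genes with mean signals of 1028 to 2559, 30.6% were called lower. Of the 2072 genes at 162 to 1028, 13.7% were. The DNA-binding protein mtSSB averaged 6965 ± 671 in Tip60 RNAi cells and 10712 ± 399.8 in eGFP RNAi cells (SD, n = 6 and 4), a log2 change of -0.63 (limma, adjusted p = 3.9e-06). The helicase mtDNA-helicase had a log2 change of -0.58, TFAM, which packages mitochondrial DNA, one of -0.35, and Ets97D, related to a mammalian nuclear respiratory factor, one of -0.26. The genes of this list that were not called had log2 changes between -0.21 for PolrMT and 0.31 for clu, with ewg at 0.02. Of 12 genes for mitochondrial protein import, the route by which the subunits reach their place, 6 fell and 0 rose, with a median log2 change of -0.23. Tim8, a chaperone of the intermembrane space, averaged 3107 ± 220 in Tip60 RNAi cells and 5305 ± 476 in eGFP RNAi cells (SD, n = 6 and 4), a log2 change of -0.77 (limma, adjusted p = 5.1e-07). The import receptor mge had a log2 change of -0.61 and Tom20 one of -0.29.

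The members are spread over the chromosomes. Of the 10 X-linked genes without a -like name 5 fell and 1 rose, with a median log2 change of -0.22, and of the 43 autosomal ones 33 fell and 0 rose, with a median of -0.29. Among the 2073 brightest genes, 87 of 324 X-linked and 612 of 1744 autosomal genes were called lower. By dsRNA (limma), 0 of the 10 X-linked and 23 of the 43 autosomal members fell with 1321-1618, where 57 of 324 and 465 of 1744 of the brightest genes did. With 190-807 the members that fell were 3 of 10 X-linked and 27 of 43 autosomal, against 62 of 324 and 422 of 1744 of the brightest genes. With 603-1116 they were 6 of 10 and 31 of 43, against 85 of 324 and 546 of 1744. The difference between X and autosomes was not tested. Across the 53 genes the change had no clear relation to brightness (Spearman's rho -0.14 across genes, which share the same arrays).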

How the data were processed

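Total RNA of 10 SL2 samples was hybridised to Affymetrix arrays. The deposited values are linear intensities per probe set, made with GCOS 1.4 per the submitters' processing notes. In the deposited intensity table, each array has a trimmed mean of 1000 (2% trimmed at each end). Background correction and probe summary were not given in the sources used here. Of 18952 probe sets, 183 controls were left out. Names came from the platform annotation, with identifiers matched to RefSeq's table of Release 6 plus ISO1 MT: 13647 probe sets had 1 symbol (13544 matched), 402 several and 4720 none.

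Log2 signals were fitted without further normalisation. Probe sets under the 40th percentile of mean log2 signal (34.5) were dropped. limma 3.58.1 in R 4.3.3 (lmFit, eBayes with an intensity trend) compared 6 Tip60 RNAi with 4 eGFP RNAi arrays, and a second model with a mean for each of the 4 groups gave the dsRNA contrasts and the F-test. Benjamini-Hochberg adjustment ran over all 11261 probe sets, and calls needed an adjusted p under 0.05. Array number limits the precision.

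Members, lists and tests were chosen with earlier results of these data known. Genes were named by rule: all of complex II, Cyt-c1, RFeSP and blw, and the largest falls in each complex among separated groups. The rule also took the largest called rises and the smallest changes in each complex, every tested -like gene, and genes whose probe sets disagree. Other genes named (ND-ACP, ND-B17, ND-51, ND-20, COX4, COX7A, ATPsynO, ATPsynE, ATPsynF, ATPsynC, UQCR-6.4, ND-B12, UQCR-11, ND-B8, Cox10, Scsalpha1, wal, TFAM, Ets97D, Tom20) were added after their values were seen. So were sun, ewg, PolrMT and clu. Alternatives covered scaling, filter, trend, block and left-out arrays. Promoter and protein sequences were not used here.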

Additional observations from a re-analysis of the deposited data

Results flagged for a closer look

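Signals were examined for lone arrays in 142 groups of arrays, the Tip60 RNAi and eGFP RNAi arrays of each tested member probe set and of Tip60. In 3 of them 1 array stood apart from the rest by Dixon's test, where chance alone would flag about 1 group in 20. All 3 are -like genes with dim signals among the Tip60 RNAi arrays. ND-51L2 was at 7.27 in dsRNA 190-807 replicate 3, and between 54.2 and 103.1 on the other 5 arrays. COX6CL was at 4.23 in dsRNA 603-1116 replicate 1, and between 43.2 and 79.6 on the others. ATPsynbetaL was at 8.84 in dsRNA 190-807 replicate 1, and between 55.8 and 83.5 on the others. The low arrays differ between the genes, and the cause was not tested.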

How the results depend on the processing

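Of the 38 genes that fell, 37 kept their call under quantile normalisation, cyclic loess and centring on the bright probe sets (SdhD lost it under quantile), 30 with each of the 10 arrays left out in turn, and 28 in all 26 settings that leave the probe sets as they are. With the probe sets of a gene averaged, RFeSP also lost its call (-0.013; limma, adjusted p = 0.94) and complex III had 2 falls. The number that fell was 43 and 41 under quantile and cyclic loess, 51, 51 and 54 with arrays scaled to the median, the hybridisation and the poly-A spike-ins, 31 to 39 with 1 array left out, and 28 without both arrays of dsRNA 603-1116. The median change of all probe sets was 0.08 as deposited and -0.43, -0.47 and -0.67 under the 3 scalings named last, where the member median was -0.76, -0.81 and -1.01. The number that rose was 4, and 5 with the probe sets of a gene averaged. It was 2 under quantile, cyclic loess, averaged pairs, and without dsRNA 190-807 or 603-1116. With median centring, hybridisation spike-ins, the stricter filter or no -like genes it was 1. It was 0 with poly-A spike-ins, and 2 to 4 with 1 array left out. Complex III had 5 falls, and complex V 11, 11 and 12, under those 3 scalings; complex V had 3 without probe sets ending in _s_at or _x_at. Complex II had 1 under quantile, without dsRNA 1321-1618 or 603-1116, and 1 to 2 with 1 array left out, and complex I had 12 without dsRNA 603-1116.

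With 1 array left out, falls numbered 7 to 28 for dsRNA 1321-1618, 13 to 29 for 190-807 and 19 to 38 for 603-1116; a lone array was assumed to vary like the others. Between dsRNAs 603-1116 and 190-807, whose replicates share the numbers 1 and 3, limma called 0 members, with 5 at an unadjusted p under 0.05; with the replicate number as a block it called 0, with 2. Deviations of same-numbered arrays of these dsRNAs correlated at 0.0023, a single value since each dsRNA has 2 arrays; whether a number marks a shared batch was not tested.

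Signs turned as follows, and the cause was not tested. COX6CL was -0.44 (quantile), -0.40 (cyclic loess), -0.37, -0.42 and -0.62 (median, hybridisation, poly-A), -0.083 and -0.24 without dsRNA 1321-1618 or 190-807, and -0.25 to 0.75 with 1 array left out. ATPsyngamma was -0.22, -0.047, -0.47, -0.51 and -0.72 under the same 5 scalings, -0.0086 without dsRNA 1321-1618 and -0.097 as the mean of its probe sets. The dimmer RFeSP probe set was -0.089, -0.045, -0.10, -0.14 and -0.34 under the same 5. ATPsyndelta was -0.24, -0.28 and -0.49, and the dimmer ATPsynbeta probe set -0.38, -0.42 and -0.62, under the last 3. ATPsynGL was -0.014 and -0.22 under the last 2. As means of their probe sets ATPsynbeta was 0.0028 and COX7C 0.39, and COX7C was then called higher (limma, adjusted p = 0.0042). ND-75 was 0.0076 under quantile and -0.096 to 0.015 with 1 array left out, where UQCR-Q was -0.17 to 0.059. ND-51L2 was 0.10 without dsRNA 190-807 and -0.69 to 0.079 with 1 array left out.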
